A study of Homo sapiens with 4 samples.

Results

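The regions described here are the CTCF peaks of 16 short arm tips: the 659 peaks, of 42462 called in all, whose centre lay in the first 2 Mb of chromosome 1, 2, 3, 4, 6, 7, 8, 9, 10, 11, 12, 16, 17, 18, 19 or 20 in hg38. They were chosen by position alone. The cells were MDA-MB-435, an established human melanoma line that was long taken for a breast cancer line, grown unsynchronised and untreated, so that they were at mixed stages of the cell cycle. Chromatin was immunoprecipitated with a rabbit antibody against CTCF, and the peaks come from the list of 1 library, asynchronous CTCF replicate 1. The study also compared mitotic cells arrested with nocodazole and an antibody against CTCF phosphorylated at T431. Those samples and the other asynchronous library, 3 in all, were not analysed here, so nothing below has a replicate check and no p-value is given. In all, 19210460 tags were counted, 11.66% of them inside called peaks.

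CTCF is a zinc finger protein that binds a long, directional DNA motif and stops the extrusion of chromatin loops by cohesin, so that pairs of sites facing each other come to lie at the bases of loops. Chromosome tips end in telomere repeats, followed inward by subtelomeric duplications that several chromosomes share. CTCF and cohesin are known to bind close to the telomere repeats of many human chromosome ends, near the start sites of the telomeric RNA TERRA. Further in, many human short arms carry GC-rich, gene-dense DNA, while others start with long gene-poor stretches.

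Promoter sequence shows what lies under some of the strongest tip peaks. The 12-letter CTCF core (CC, any 3 letters, AGG, any letter, GGC), searched on both strands, was present in each of the following RefSeq promoter stretches (GRCh38.p14), and capitals mark the match. For INTS1, LRRC56 and MAPK8IP3 the core lay on the strand opposite to the gene, so the capitals spell its reverse complement. Every stretch is written along the gene's own strand and ends ahead of the start site to which the promoter window belongs, which for LRRC56 and GEMIN4 lies inside the annotated gene. Of the 7 printed, GEMIN4, INTS1 and SLC25A22 were taken because their promoter window lay wholly inside a member peak and held the core. The other 4 were added after their values were seen. All 7 were picked among promoters that held the core, so its presence here is no result. Of the 67 members over a promoter window, 17 had the core there.
LRRC56: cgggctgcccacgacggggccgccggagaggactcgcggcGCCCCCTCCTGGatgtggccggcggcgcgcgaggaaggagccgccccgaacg
MAPK8IP3: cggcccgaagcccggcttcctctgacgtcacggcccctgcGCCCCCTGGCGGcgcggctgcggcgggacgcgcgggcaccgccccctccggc
GEMIN4: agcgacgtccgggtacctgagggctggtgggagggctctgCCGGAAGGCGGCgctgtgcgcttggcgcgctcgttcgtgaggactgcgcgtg
INTS1: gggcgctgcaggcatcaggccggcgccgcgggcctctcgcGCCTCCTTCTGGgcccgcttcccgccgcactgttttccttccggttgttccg
SLC25A22: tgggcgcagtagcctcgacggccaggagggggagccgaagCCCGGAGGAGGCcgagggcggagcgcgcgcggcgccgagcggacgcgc
GPER1: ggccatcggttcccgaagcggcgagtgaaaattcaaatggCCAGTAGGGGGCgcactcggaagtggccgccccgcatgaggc
LOC284600: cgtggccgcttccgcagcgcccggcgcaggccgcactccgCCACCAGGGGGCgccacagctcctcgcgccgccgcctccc

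The LRRC56 stretch is chr11:518755-518846 on the plus strand, at a gene of ciliary dynein transport. The stretch of MAPK8IP3, which encodes a scaffold for axonal transport, is chr16:1706066-1706157 on the plus strand. The stretch of GEMIN4, a part of the complex that assembles spliceosomal particles, is chr17:752304-752395 on the minus strand. INTS1, a subunit of the Integrator complex that cuts nascent RNA, has its stretch at chr7:1504413-1504504 on the minus strand. SLC25A22, a mitochondrial glutamate carrier, has its stretch at chr11:798282-798369 on the minus strand. The stretch of GPER1, a membrane receptor for oestrogen, is chr7:1087036-1087117 on the plus strand, and that of the long noncoding RNA LOC284600 is chr1:904731-904810 on the plus strand. The middle of the core lay 0.5 bp from the peak centre at LOC284600, 2.5 bp at GEMIN4, 6.5 bp at GPER1, 14.5 bp at MAPK8IP3 and 23.5 bp at LRRC56. It lay 42.5 bp away at SLC25A22 and 43.5 bp away at INTS1.

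CTCF peaks were denser at the tips than along the rest of the same chromosomes. The windows held 20.6 peaks per Mb, with an exact Poisson 95% interval of 19.1 to 22.2, against 14.8 peaks per Mb in the rest, which held 33211 peaks. The 2 Mb that followed on the same arms held 20.3 peaks per Mb, and the last 2 Mb of the same chromosomes held 23.03, so the density was close to that of the neighbouring sequence and below that of the long arm tips. Protein-coding genes were denser still at the short arm tips, with 15.5 genes per Mb in the windows against 6.86 in the rest. Set against genes, the tips therefore held fewer peaks than the rest, 1.33 per coding gene against 2.16. The 2 Mb that followed held 1.76 per coding gene and the long arm tips 1.23. At the 8 tips with the most coding genes the value was 1.10, against 1.85 in the rest of their chromosomes. At the 8 with the fewest it was 2.57 against 2.56. This division was made after the values were seen. The 659 members had a median distance to the nearest other peak of 12.5 kb, against 16.9 kb for the other peaks of the 16 chromosomes. All intervals given here cover counting error only. Lengths were counted in full, with centromeres and unsequenced bases included, where few or no peaks can be called. This lowers the densities of the rest, and its effect on the comparisons with the tips was not tested.

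The 16 tips differed from each other. The highest density was found on 19p, with 79 peaks, followed by 16p with 70, 11p with 59, 20p with 58 and 7p with 57. Then came 1p with 50, 17p with 45, 4p with 43, 6p with 40 and 12p with 30, and the 6 sparsest tips were 18p with 27, 2p with 25, 9p with 24, 8p with 22, 10p with 20 and 3p with 10. On 10 arms the tip was denser than the rest of its own chromosome, and on 7 of these (1p, 4p, 7p, 11p, 16p, 19p and 20p) the interval of the tip lay wholly above the density of the rest. On 16p the tip held 35.0 peaks per Mb, against 14.1 in the rest of chromosome 16, a ratio of 2.48 and the second densest of the 45 tiles of 2 Mb on that chromosome. On 4p it held 21.5 peaks per Mb, against 11.1 in the rest, and on 7p it held 28.5, against 13.5. Only the tip of 3p had an interval wholly below the rest of its chromosome, with 5.0 peaks per Mb (2.40 to 9.20) against 15.5, and it ranked 92nd of 99 tiles. The remaining 8 arms had intervals that spanned the value of the rest, 17p among them, where 22.5 peaks per Mb stood beside 21.8.

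**Figure D1:**
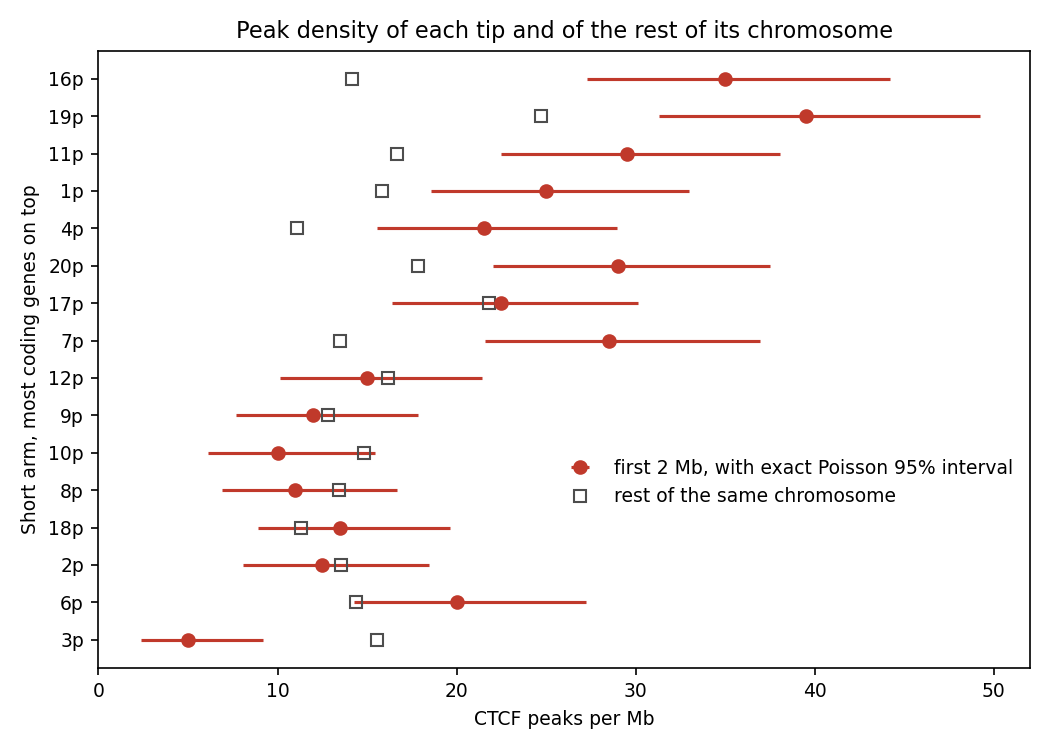
CTCF peaks per Mb in the first 2 Mb of each short arm (filled points, with exact Poisson 95% intervals) and in the rest of the same chromosome (open squares), with arms ordered by their number of coding genes. The tips of 1p, 4p, 7p, 11p, 16p, 19p and 20p lie above the rest of their chromosomes, and the tip of 3p, with 5.0 peaks per Mb, lies below.

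Peak number ran with gene number across the arms. The count of coding genes in the window was 92 on 16p, 71 on 19p and 70 on 11p, and it was 2 on 3p and 8 on 6p. Over the 16 arms, the number of peaks and the number of genes had a Pearson correlation of 0.87 and a Spearman correlation of 0.85, and Pearson's value was 0.80 over the 14 arms left without 16p and 19p. All points come from 1 library, and the values describe these arms without a test. Peaks per gene were highest on 6p, with 40 peaks for 8 genes, and on 3p, with 10 for 2, both 5.0, and lowest on 16p, at 0.761.

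Pooled by gene number, the arms also differed in peak strength, given here as tags per peak scaled by the authors' peak caller to a library of 10000000 tags. Among the 8 arms with the most coding genes (16p, 19p, 11p, 1p, 4p, 20p, 17p and 7p), the 461 peaks had a median of 26.3 normalised tags, against 21.1 in the rest of those chromosomes. Among the 8 with the fewest (12p, 9p, 10p, 8p, 18p, 2p, 6p and 3p), the 198 peaks had a median of 16.0, against 19.5 in the rest. Single arms did not all follow. Gene-rich 7p had a median of 16.7 tags against 19 in the rest of its chromosome, gene-poor 12p had 28.4 against 20, and gene-poor 9p had 21.6 against 19.8. Pooled density differed too, with 28.8 peaks per Mb (26.2 to 31.6) at the gene-rich tips against 15.6 in the rest of their chromosomes. At the gene-poor tips it was 12.4 (10.71 to 14.22), an interval that just included the 14.15 of the rest. Gene-poor 6p held 20 against 14.4 and 18p 13.5 against 11.3. Local background, which is the tags of a peak divided by its fold over the surrounding 10 kb, moved with pooled density. Its median was 1.78 normalised tags at the gene-rich tips against 1.51 in the rest of their chromosomes, and 1.22 at the gene-poor tips against 1.47. Alone of the 16 arms, gene-poor 12p went against this, at 1.64 against 1.44. Median fold over the surroundings did not show this pattern, at 14.01 at the gene-rich tips against 13.9 in the rest, and 14.3 at the gene-poor tips against 13.1. Peaks were called without a control library, so extra DNA copies in these aneuploid cells and stronger binding cannot be told apart. The division by gene number was made after the values were seen.

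**Figure D2:**
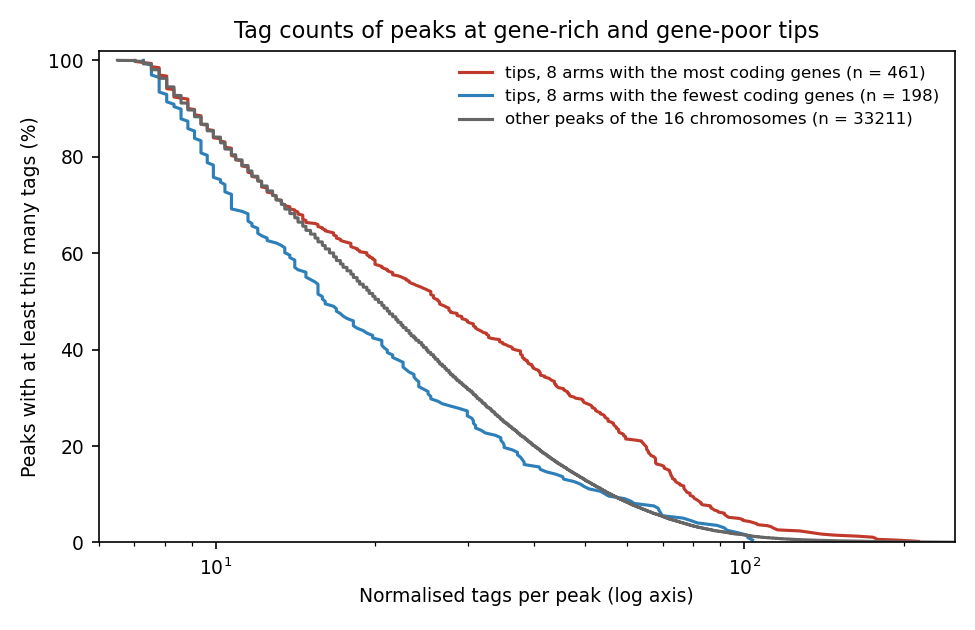
Share of peaks (vertical axis, percent) with at least the number of normalised tags on the horizontal log axis, for the tips of the 8 arms with the most coding genes, the tips of the 8 with the fewest, and the other peaks of the 16 chromosomes. The line of the 461 peaks at gene-rich tips lies above that of the 33211 other peaks for values over about 20 tags, and the line of the 198 peaks at gene-poor tips starts below it.

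Over all 16 arms pooled, the tips had more very strong peaks than the rest, while their medians lay close together. The median was 22.1 normalised tags among members and 20.3 among the other peaks, but the 90th percentile was 74.9 among members and 56.0 among the others. This difference lay mostly at the 8 gene-rich tips, with a 90th percentile of 78.9 against 59.3 in the rest of their chromosomes. At the 8 gene-poor tips it was 53.7 against 52.3. Of the members, 80, or 12.1% (exact Clopper-Pearson 95% interval 9.74 to 14.9%), were in the top 5% of the whole list by tags, which begins at 71.1 tags, against 5.2% of the other peaks. The parts most like them were close to the members in this, with a top 5% share of 9.09% in the 2 Mb that followed and 10.04% in the last 2 Mb, and 90th percentiles of 68.3 tags in the 2 Mb that followed and 70.7 in the last 2 Mb. The top score decile held 136 members, or 20.6%, and 10.3% of the other peaks. Deciles 4 to 8 each held between 6.53% and 8.04% of members, less than their share of the other peaks, while the weakest, deciles 1 and 2, held 10.9% and 11.8% of members against 9.82% and 9.65% of the other peaks. The list's 100 strongest peaks by tags included 5 members, and its 1000 strongest included 37, where members are 659 of all 42462 peaks. Median fold over the surrounding 10 kb was 14.1 among members and 13.5 among the others, and the caller's focus ratio, the share of tags close to the peak's centre on the right strand, had a median of 0.846 among members and 0.847 among the others.

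The strongest member, at chr11:518650-518998, carried 213 normalised tags (193 to 235), was 92.2-fold above its surroundings, and covers the LRRC56 promoter stretch shown above. The next, at chr16:96912-97260 with 198 tags, lay inside NPRL3, which encodes a subunit of the GATOR1 complex that restrains mTORC1 and whose introns hold the distal enhancers of the alpha-globin genes. A peak of 178 tags at chr20:1466811-1467159 lay 136 bp from an end of NSFL1C, which encodes a cofactor of the p97 ATPase. A peak of 177 tags at chr16:1929659-1930007 lay outside genes, 8396 bp from MSRB1, a methionine sulfoxide reductase gene. On 7p, a peak of 175 tags at chr7:993136-993484 lay inside CHLSN, which encodes cholesin. These 5 peaks sat on 4 arms, and each ranked among the 100 strongest of the whole list.

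The other 5 of the 10 strongest lay on 19p, 11p and 16p. A peak of 164 tags at chr19:921629-921977 lay 798 bp from KISS1R, the kisspeptin receptor gene. Another of 148 tags at chr19:510655-511003 lay inside TPGS1, which encodes a subunit of the tubulin polyglutamylase, with a second strong member 3.95 kb away. The peak at chr19:1672282-1672630, with 140 tags, lay 19841 bp from TCF3, a helix-loop-helix transcription factor gene, and its focus ratio of 0.689 was below the 10th percentile of members, 0.721. On 11p, a peak of 135 tags at chr11:728032-728380 lay 479 bp from EPS8L2, which encodes an actin regulator. On 16p, a peak of 131 tags at chr16:1705952-1706300 covered the MAPK8IP3 stretch, 69 bp from an end of the gene. Of the 10, 4 were at a gene end, 4 were inside a gene and 2 were outside genes. On 16p, 19p or 11p lay 8 of them, arms that held 70, 79 and 59 of the 659 members.

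The strongest peak of the other arms had fewer tags. By score, the leading peak of 17p was at the GEMIN4 promoter with 111 tags, that of 12p was 593 bp from the GABA transporter gene SLC6A13 with 104 tags, and that of 6p lay 5388 bp from FOXC1 with 101 tags. On 4p it lay 120 bp from ATP5ME, a subunit gene of the ATP synthase, with 99.2 tags, and on 18p it lay 161 bp from ENOSF1 with 92.7 tags. The leading peaks of 8p, 1p and 9p had 91.6, 89.0 and 88.8 tags, the last inside KANK1, a regulator of actin. On 10p the leading peak had 48.9 tags and lay inside DIP2C, on 2p it had 47.6 tags and lay 26759 bp from TMEM18, and on 3p it had 22.9 tags and lay 223330 bp from the neural adhesion gene CHL1. The maxima on 10p, 2p and 3p were thus below the 90th percentile of members.

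**Figure D3:**
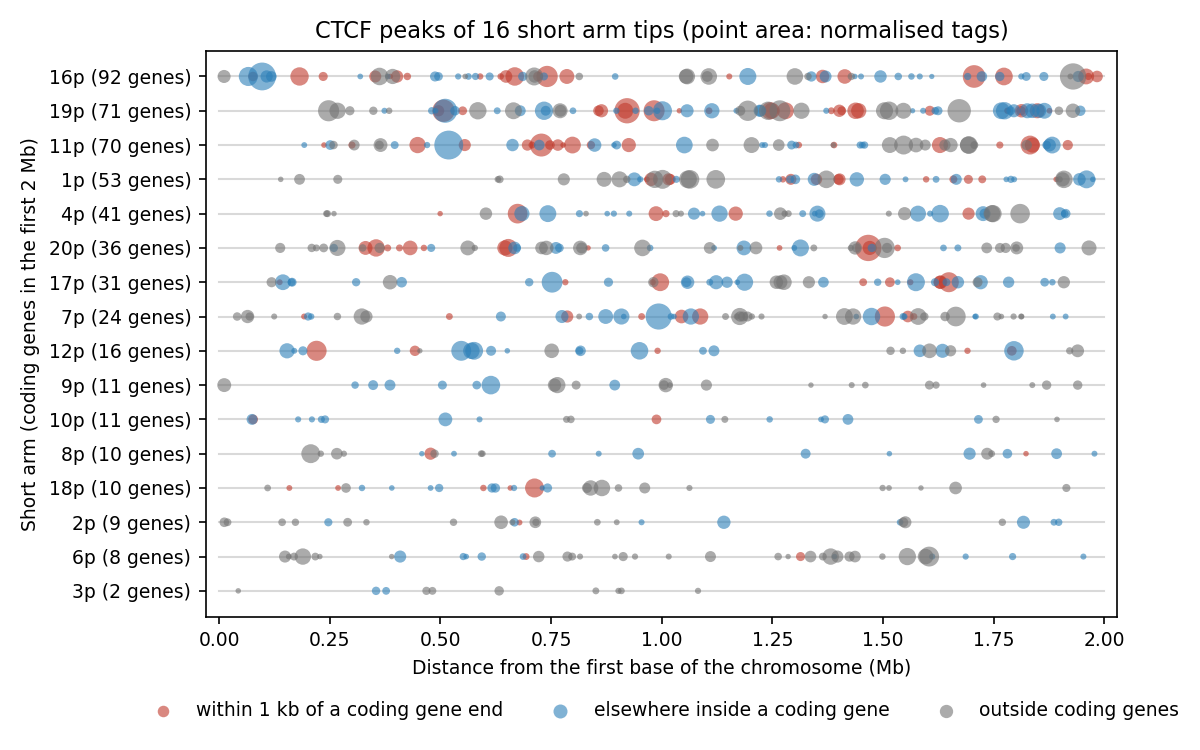
Position of each of the 659 peaks along the first 2 Mb of 16 short arms (horizontal axis, distance from the first base of the chromosome in Mb), with point area in proportion to normalised tags and colour giving the place relative to coding genes. Arms run from most coding genes (16p, 92) at the top to fewest (3p, 2) at the bottom, where points are few and small.

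A larger share of tip peaks than of other peaks sat at gene ends. Of the members, 136, or 20.6% (17.6 to 23.9%), had their centre within 1 kb of either end of a coding gene, against 12.6% of the other peaks of the 16 chromosomes and 13.9% in the 2 Mb that followed. At the long arm tips the share was 18.9%. Elsewhere inside coding genes lay 266 members, or 40.4%, against 42.3% of the other peaks, and outside coding genes lay 257, or 39.0%, against 45.1%. Seen per gene there was little between them: 147 of the 495 coding genes of the windows had a called peak within 1 kb of an end, 29.7% (25.7 to 33.9%), against 29.1% of 15366 coding genes elsewhere on these chromosomes. The share was 25.8% of peaks (21.9 to 30.1%) at the 8 gene-rich tips, against 14.0% in the rest of their chromosomes. At the 8 gene-poor tips it was 8.59% (5.08 to 13.4%), an interval that spanned the 11.2% of the rest. Among gene-poor arms, 18p had 18.5% against 7.55% and 12p had 16.7% against 13.6%, and the others had less than the rest of their chromosomes. Members at gene ends had a median of 27.8 normalised tags against 23.2 for other peaks there, members inside genes 18.4 against 19.5, and members outside genes 25.5 against 20.8.

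The densest 100 kb of any tip lay on 19p, where 13 peaks stood between positions 1767434 and 1865072 over ONECUT3, ATP8B3, REXO1 and KLF16. ONECUT3 and KLF16 encode transcription factors, and ATP8B3 encodes a lipid flippase of sperm. Their tags ran between 7.81 and 77.3, with a median of 50.2, so that the run combined strong and weak peaks. On 1p, 9 peaks stood between positions 920952 and 1019578 around SAMD11, NOC2L, PERM1, HES4 and ISG15, the strongest of them, with 92.1 tags, 1910 bp from the Notch target HES4. Next, with 8 peaks, came 16p between positions 636070 and 734040, where 14 coding genes lay, among them the ubiquitin ligase gene STUB1. Stretches of 20p and 7p also held 8 peaks each. By contrast, the last 918 kb of the 3p window held no peak, and the longest gaps of 18p, 12p and 2p were 437, 399 and 398 kb.

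Several genes carried a row of peaks in their bodies. ABR on 17p held 7 peaks of 8.07 to 75.5 normalised tags, and CHLSN on 7p held 6 peaks of 8.07 to 175. DLGAP2, a synaptic scaffold gene on 8p, also held 6 peaks but over 971 kb, which is 0.618 peaks per 100 kb against 3.10 in ABR. ADARB2, an RNA-editing enzyme relative on 10p, held 5 peaks, none above 29.9 tags. These counts scale with gene length and are given as a description.

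On 16p the alpha-globin region was marked on both sides of its globin genes. NPRL3 had 3 peaks in its body, with 198, 38.3 and 29.2 normalised tags, and none within 1 kb of its ends. HBQ1, the theta globin gene, had a peak of 86.4 tags at 421 bp, while the nearest peak to HBA1 was 4.08 kb from its end and that to HBZ 27.1 kb. AXIN1, a Wnt pathway scaffold gene, had a peak of 37.0 tags at 18 bp, and FAM234A one of 21.3 tags at 225 bp. Of the 9 genes listed for the region, 3 had a peak within 1 kb of an end, 33.3% (7.49 to 70.1%), beside 29.7% of all coding genes of the windows.

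The forkhead genes of 6p stood in a run of peaks that lay mostly between the genes. From FOXQ1 to FOXC1, developmental transcription factor genes with FOXF2 between them, 13 of the 40 peaks of 6p lay in 302 kb, and 10 of the 13 were outside coding genes. Their tags ran between 7.81 and 101. Only FOXQ1 had a peak within 1 kb of an end, with 21.1 tags at 886 bp. FOXC1 had 1 peak in its body, of 9.89 tags, 1521 bp from an end, and the strongest peak of the arm lay between FOXF2 and FOXC1.

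Other gene groups of the tips were too small for their shares to be set apart from the 29.7% of all coding genes of the windows: the exact intervals were 0 to 45.9% for the beta-defensins, 0 to 60.2% for the mucins, 0 to 70.8% for the DM domain genes and 0.631 to 80.6% for the IFITM genes. None of the 6 beta-defensin genes of 20p, which encode antimicrobial peptides, had a peak within 1 kb of an end, and the nearest to DEFB125 was 40.8 kb away. The 4 gel-forming mucin genes of 11p had none at their ends, with the nearest to MUC2 at 4.45 kb, while 5 peaks of 9.11 to 71.3 tags lay within the span of the cluster. None of the 3 DM domain genes of 9p had one, and DMRT1, which acts in sex determination, held 1 peak of 29.9 tags in its body. Among the 4 IFITM genes of 11p, which encode antiviral membrane proteins, IFITM5, which acts in bone, had a peak of 13.0 tags at 542 bp and IFITM1 had none. Neither TNFRSF18 nor TNFRSF4, TNF receptor genes of T cells on 1p, had a peak within 50 kb.

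Of the 5 listed genes of the Wolf-Hirschhorn region of 4p, a deletion syndrome region, NELFA, which encodes a subunit of the negative elongation factor, had a peak at an end. That peak, with 9.63 tags at 143 bp, lay just past the 2 Mb limit and is no member. The centrosomal gene TACC3 held 2 peaks in its body with up to 57.0 tags, and the histone methyltransferase gene NSD2 held 3 with up to 42.7 tags. FGFR3, a growth factor receptor gene, had its nearest peak 1.25 kb from an end. CHL1 on 3p held 2 peaks in its body, up to 18.2 tags, and CNTN6, an adhesion gene like it, held none, the nearest being 10.8 kb from its end.

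Granule protease genes of 19p and genes of 18p had a peak at most of their members, although each list is short. Among the 5 genes on 19p, which encode serine proteases of blood cells and complement factor D, CFD had 44.5 normalised tags at 374 bp, ELANE 28.6 at 931 bp and GZMM 19.8 at 318 bp, while AZU1 had none. Of the 5 genes on 18p, 4 had a peak: ENOSF1 with 92.7 tags, USP14, a deubiquitinase gene of the proteasome, with 8.85 at 36 bp, THOC1, an mRNA export gene, with 8.59, and TYMS, the thymidylate synthase gene, with 7.81. The kinase gene YES1 had no peak within 1 kb of an end but held 2 in its body. With 5 genes each, the exact intervals of both shares, 14.7 to 94.7% and 28.4 to 99.5%, were too wide to set them apart from the other genes.

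The peaks nearest to the chromosome ends were few, so that most members lay inward of the outermost sequence. Positions are counted from the first base of the assembly, which begins each chromosome with unsequenced telomere bases. Only 4 members lay within 20 kb, on 3 arms, and 13 lay within 100 kb, on 6 arms; by 250 kb there were 58, and every one of the 16 arms had at least 1. The most distal were at 10871 on 16p with 43.7 normalised tags, 11230 on 9p with 49.7 and 11427 on 2p with 23.7. On 7p, 3p and 10p the first peak started at 40390, 42909 and 74073. The first peaks of 18p, 17p, 20p, 1p, 6p and 12p started between 109317 and 153185. On 11p, 8p, 4p and 19p they started at 192087, 206807, 242217 and 247113, and those of 19p and 8p were strong, with 114 and 91.6 tags.

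Summed over the arms, peaks were thinnest in the outermost 250 kb. There were 14.5 peaks per Mb there (11.01 to 18.7), 18 in the second 250 kb, 21.25 in the third and 23.25 in the fourth. Bin lengths include the unsequenced bases that open each chromosome, where no peak can be called, so the outermost density is understated. How much of its low value comes from this was not tested. The 4 bins of the second Mb held between 19.5 and 24.75 peaks per Mb. Coding genes numbered 12 per Mb in the outermost bin and were densest in the third, with 20.25. In 2 Mb tiles, the first held 659 peaks, the next 649, and those up to 10 Mb held 533, 632 and 529.

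**Figure D4:**
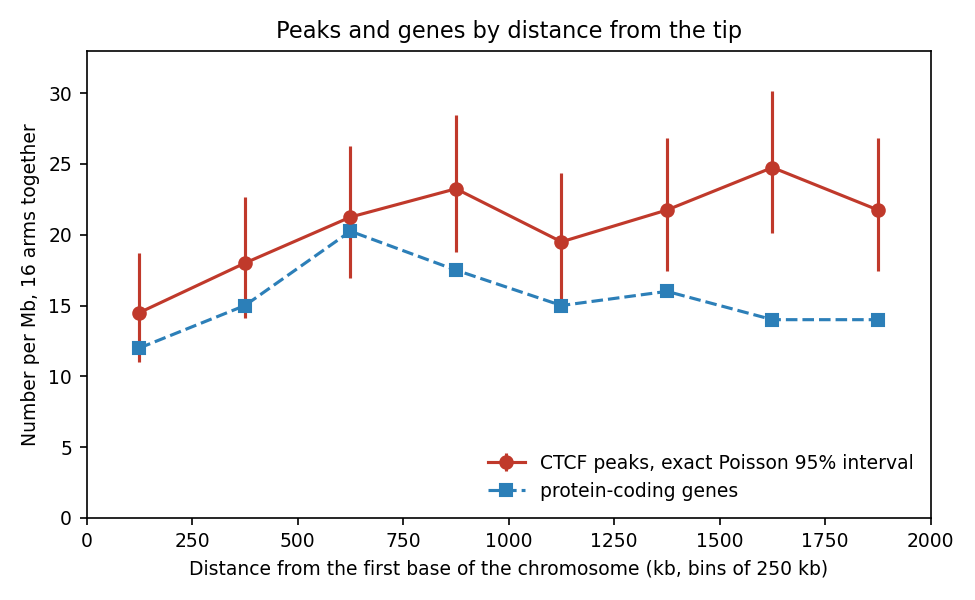
CTCF peaks per Mb (circles, with exact Poisson 95% intervals) and protein-coding genes per Mb (squares) in bins of 250 kb by distance from the first base of the chromosome in kb, 16 arms together. Peaks are thinnest in the outermost bin, at 14.5 per Mb, and number between 19.5 and 24.75 per Mb beyond 500 kb. Unsequenced bases are counted in the bin lengths.

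Close to the tips, a few peaks stood on almost empty surroundings. Of all 659 members, 4 were more than 100-fold above the surrounding 10 kb, 0.607% (0.166 to 1.55%). Among the 33211 other peaks there were 24, or 0.0723%. All 4 members lay in the first 300 kb, which held 72 members, against 0 of the 587 members further in. The 300 kb limit was set after these values were seen, so this contrast follows from it and is a description only. On 17p the peak at chr17:118327-118675 had 26.3 tags and a fold of 931, with a local background of 0.0282 tags. On 1p the peak at chr1:267837-268185 had 21.1 tags and a fold of 747. The most distal peaks of 16p and 9p had folds of 465 and 170. None of the 4 was exceptional in tags, their focus ratios were 0.940 to 0.985, and their local backgrounds were 0.0282 to 0.292 against a median of 1.58 among members. The peaks of 16p and 9p lay beside DDX11L pseudogenes, which many chromosome ends carry. Whether sequence at the peaks of 17p and 1p is shared between chromosome ends was not examined. How reads from near-identical copies were placed is not given in the sources used here. Around the peaks of 16p and 9p, the surrounding 10 kb may also reach the unsequenced bases that open the chromosome. The part of either in the low background was not tested.

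**Figure D5:**
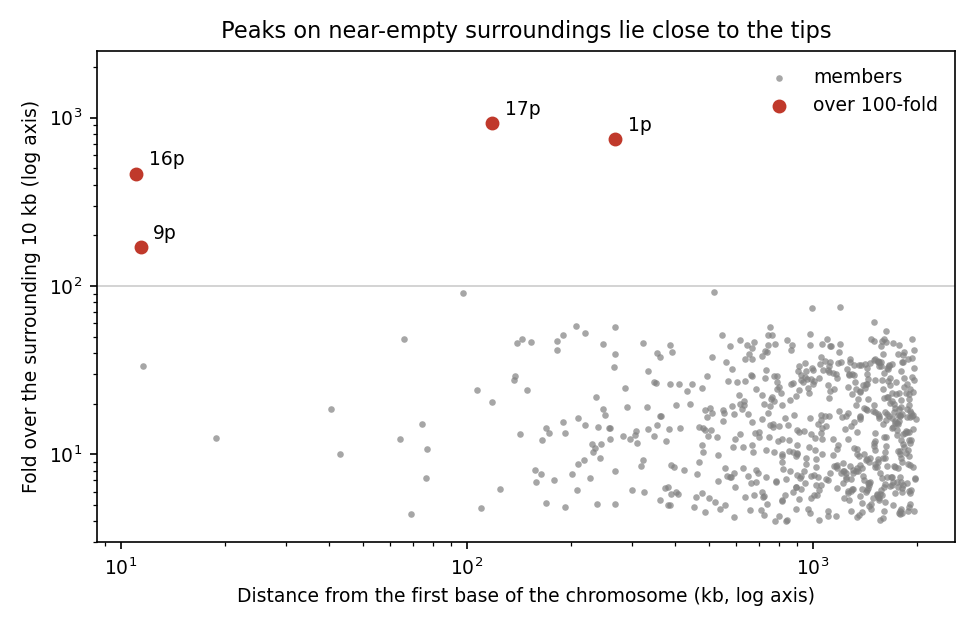
Fold over the surrounding 10 kb (vertical log axis) of each member against its distance from the first base of the chromosome (kb, horizontal log axis), with members over 100-fold marked and named by their arm. The 4 marked peaks, on 1p, 9p, 16p and 17p, lie within 300 kb of the first base.

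Some of the distal peaks stood beside DDX11L genes, pseudogenes carried by many chromosome ends. Of 8 copies in the annotation, 4 had a peak within 1 kb, at 510 to 810 bp, and 3 of these were in the windows. DDX11L10 on 16p had the peak of 43.7 tags at 510 bp, DDX11L5 on 9p the peak of 49.7 tags at 583 bp, and DDX11L17 on 1p a peak of 29.9 tags at 810 bp. The fourth, DDX11L2, lies inside the long arm of chromosome 2, where ancestral chromosome ends fused, and its peak at chr2:113604068-113604416, no member, had 307 tags at 525 bp. DDX11L1 on 1p and DDX11L8 on 12p had no peak nearer than 125 and 139 kb. Because these copies are nearly identical, the tags of any 1 of them are uncertain.

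Of 36 listed genes of the duplicated subtelomeric families in the windows, 5 had a peak within 1 kb of an end, 13.9% (4.67 to 29.5%). Most of the 36 are pseudogenes or noncoding RNA genes, so the 29.7% of all coding genes of the windows covers an unlike set. Besides the 3 DDX11L copies, the genes with a peak were TUBB8 on 10p and ZNF721 on 4p. TUBB8, a tubulin gene of the oocyte spindle, had 24.2 tags at 74 bp. ZNF721, a zinc finger gene, had 7.55 tags at 203 bp. The odorant receptor genes named OR4F and the WASH copies had no called peak there. As with DDX11L, how reads were placed among near-identical copies is not known, so these absences and the tags at TUBB8 are uncertain. ZNF721 was also the only one of 6 listed zinc finger genes with a peak there, and ZNF141 had none within 78.4 kb, and the interval of this share, 0.421 to 64.1%, is wide.

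The CTCF core was found more often in promoters under a tip peak than in those without one. Of the 85 promoter windows of the tips that overlapped a member by at least 1 bp, 17 held it, 20% (12.1 to 30.1%), against 31 of 689 other promoter windows of the tips, 4.50%. In the whole table, 15.6% of 3770 other promoters under a peak held it, against 3.24% of 30399 without, and 4.64% of all 34943 promoter windows did. The windows run over 250 bases before and 50 bases after a gene's start, and the table covers 375 of the 495 coding genes of the tips. Of 18 matches under members, 13 lay within 50 bp of the peak centre, and 8 were on the plus and 10 on the minus strand of the chromosome. The 17 members over a promoter with the core had a median of 67.7 normalised tags (range 8.07 to 213), against 22.9 (7.55 to 178) for the 50 over promoters without it. The ranges overlapped almost wholly. At least 50 tags were found for 12 of the 17 and for 17 of the 50, a limit that was not planned beforehand. Only promoter windows were searched, so a core elsewhere under a peak would be missed. A match is a description of letters, not a site.

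At the inner limit of the windows, peaks of a range of strengths lay on both sides. The last members were a peak of 34.4 normalised tags 16.1 kb short of 2 Mb on 16p, one of 9.11 tags on 8p and one of 7.81 tags on 1p. The first peaks beyond it had 53.6 tags, 3.95 kb past the limit on 16p, 33.3 tags on 20p and 9.63 tags on 4p.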

How the data were processed

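The values come from 1 peak list, of asynchronous CTCF replicate 1, called with HOMER findPeaks in factor mode without a control, per the file headers. Per the submitters' processing notes, reads were handled with Bowtie2 and HOMER on hg38, with no version given there. The header gives a peak width of 349 bp, at least 4-fold over the surrounding 10 kb at p 0.0001, a false discovery rate of 0.001 (15 tags) and at most 1 tag per position. The deposited columns hold tag signal scaled by the authors to 10000000 tags, a focus ratio given as a fraction, a peak score, a fold (ratio) over the local region with its p-value, and a clonal ratio. They were used only to describe peaks within this list.

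Members were found by centre position, and the members and gene lists were chosen with earlier results of these data known. Genes, their ends and promoters came from RefSeq tables (GRCh38.p14), of which 58419 of 59792 gene rows, those of the primary chromosomes, were kept. A gene end was met by a peak centre within 1 kb, and a gene was counted in the window that holds its middle. The rest of a chromosome ran up to its last annotated gene end or peak, with centromeres and unsequenced bases counted in its length. Named were the 10 members with the most tags, the most distal and the highest-scoring member of each arm, the densest 100 kb of 3 arms, and up to 4 genes per list by the strongest peak at an end with the alphabetically first gene lacking one; other names were chosen after values were seen. Counts carry exact Poisson and shares exact Clopper-Pearson 95% intervals, and 1 library allows no test. Counting functions were tested on simulated data. Scripts ran under Python 3.11.15 with scipy 1.17.1, pandas 2.3.3 and numpy 2.4.6, and figures were drawn with matplotlib 3.10.9. The alternatives varied the window, the peak threshold, the arms and the comparison sequence. The 3 other samples were not analysed here.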

Additional observations from a re-analysis of the deposited data

How the results depend on the processing

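No paired analysis was possible because only 1 library was analysed, so no replicate could be left out either; chromosomes were left out in its place. Below, ratios are of members over the other peaks of the 16 chromosomes, the gene-end share is in percent, and a focus difference is members minus others. The values given above were a density ratio of 1.39, a gene-end share of 20.6%, and ratios of 1.09 for tags, 1.06 for background, 1.05 for fold, 0.741 for neighbour distance and 0.616 for peaks per gene, with a focus difference of -0.001. Leaving out each chromosome in turn gave 1.32 to 1.47 for density, 19.1 to 21.6% for the gene-end share, 1.03 to 1.12 for tags, 1.04 to 1.08 for background, 1.04 to 1.07 for fold, 0.708 to 0.809 for neighbour distance, 0.592 to 0.668 for peaks per gene, the highest without chromosome 16, and -0.002 to 0 for focus. Of 88 other recalculations, 17 changed direction, counted whether or not they stayed within counting error. Of those that did not change direction, 45 stayed within counting error and 26 moved beyond it.

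The medians of tags and of focus changed direction in 4 settings each. Counting error reached from -0.009 to 0.008 for the focus difference, so its 4 changes all lay within it. For the tag ratio it reached from 0.975 to 1.23. The tag ratio was 0.975 in a 1 Mb window, 0.995 without chromosomes 16 and 19 and 0.953 against 2 to 4 Mb, but 1.28 among peaks at or above the median score and 1.27 among peaks at least 8-fold over their surroundings. The 1 Mb window also gave 0.992 for background, 0.874 for neighbour distance and 0.553 for peaks per gene, and the 3 Mb window gave 0.669 for peaks per gene. Among peaks at or above the median score, background was 1.15, fold 1.17 and the focus difference 0.002. Among 8-fold peaks the gene-end share was 17.4%, neighbour distance 0.906 and the focus difference 0.006. Without chromosomes 16 and 19, density was 1.25, the gene-end share 17.5%, background 1.01 and peaks per gene 0.667. Against 2 to 4 Mb of the same arms, density was 1.02, background 1.00, the focus difference 0.001 and peaks per gene 0.755. Against the last 2 Mb, density was 0.894, background 0.948, fold 1.15, neighbour distance 0.993, the focus difference 0.003 and peaks per gene 1.08. With all annotated genes, the gene-end share was 27.6% and peaks per gene 0.80; with coding genes it was 15.3% within 500 bp and 41.9% within 5 kb. At the 8 arms with the most genes, a choice made after seeing the data, density was 1.84, the gene-end share 25.8%, tags 1.25 and background 1.18. At the 8 with the fewest, density was 0.874, the gene-end share 8.59%, tags 0.820, background 0.833, neighbour distance 1.17 and peaks per gene 1.01. The cause of these changes was not tested.

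At 19210460 tags, the weakest peaks rest on about 15 tags, so a tip with few weak peaks may hold others below the threshold.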
